A study of Sus scrofa with 9 samples.

Results

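Catalase, the superoxide dismutases, glutathione peroxidases, heme oxygenase and the thioredoxin system are the enzymes that a muscle fibre uses against reactive oxygen. The set described here holds 9 genes chosen by name, with earlier results of these data known. They are CAT, SOD1, SOD2, GPX1, GPX4, HMOX1, TXN, TXNRD1 and TXNIP. Every array probe whose RefSeq accession belongs to 1 of these genes was taken. This gave 36 probes of 8 genes, among 6891 named probes of 3196 genes on the array, and no probe carried the accession of SOD2, so SOD2 was not analysed here.

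Bama minipigs of both sexes, intact and 6 months old at the start, received 1 of 2 diets for 23 months. The HFHSD group (6 animals) ate a mix of 53% basal feed, 37% sucrose and 10% lard, and the CD group (3 animals) ate standard pig chow, both on a restricted daily ration of 3% of body weight per the labels. Longissimus dorsi, the long back muscle, was measured on 1 single-colour Agilent array per animal. The sex of each animal is not in the labels used here.

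Reactive oxygen leaves the respiratory chain as superoxide, which the dismutases SOD1 (cytosol) and SOD2 (mitochondria) turn into hydrogen peroxide. Catalase in peroxisomes and the selenium-containing glutathione peroxidases then break the peroxide down. In parallel, thioredoxin (TXN) reduces oxidised protein thiols and is itself recharged by thioredoxin reductase (TXNRD1), a selenoprotein that draws on NADPH, while TXNIP binds thioredoxin and holds it inactive. TXNIP is also known as a glucose-induced gene that limits glucose uptake, and HMOX1 and TXNRD1 are known targets of the stress-activated transcription factor NRF2.

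Levels are log2 signals set against the 75th percentile of their own array, so that 1 unit is a factor of 2 and levels of different probes cannot be set against each other. A difference is HFHSD minus CD on that scale. A summed level of markers is the log2 of the sum of their unlogged levels, with 1 probe per gene. The brightest probes thus weigh most in it, and it was compared only between arrays. All 36 probes were well above background on all 9 arrays. On the whole array 36.7% of spots were well above background on CD 1, against 51.1% to 68.8% on the other 8 arrays, so results that turn on that animal are also given without it. Of 16 skeletal muscle fibre markers 13 were measured, and all 13 were above background on every array. Their summed level ran from 13.23 to 13.59 in HFHSD and from 13.52 to 13.92 in CD, with 10 of 13 lower in HFHSD and 0 passing the test. The 13.92 was CD 1, and without it the CD animals were at 13.52 and 13.63.

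CAT rose and TXNRD1 fell in HFHSD muscle, and these were the 2 of 8 measured genes that passed by their brightest probe. By probe, 4 of 36 passed an adjusted p of 0.05 in limma's test, 1 of CAT and 3 of TXNRD1, beside 1.24% of all 27922 tested probes (0.698% passed as higher and 0.541% as lower in HFHSD) and 1.32% of the 15847 probes above background on every array. Over genes 2 of 8 passed beside 0.995% of 2613 tested genes, of which 0.498% were higher and 0.498% lower. The probes of each gene ran in 1 direction: all 9 of CAT, 7 of TXNIP and 2 of SOD1 were higher in HFHSD, and all 6 of GPX1, 3 of GPX4, 3 of HMOX1, 2 of TXN and 4 of TXNRD1 were lower. On 23 of the 36 probes the 2 diets had no overlap in level, 12 with HFHSD above CD and 11 with HFHSD below CD, beside 10.9% of all tested probes (4.78% above and 6.13% below) and 13.4% of those above background on all 9 arrays. The median difference of the 36 probes was -0.01, with 18 in each direction, and that of all tested probes was -0.02. Since the genes were chosen with earlier results known and probes of 1 gene share a transcript, these counts are no test of the set.

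**Figure D1:**
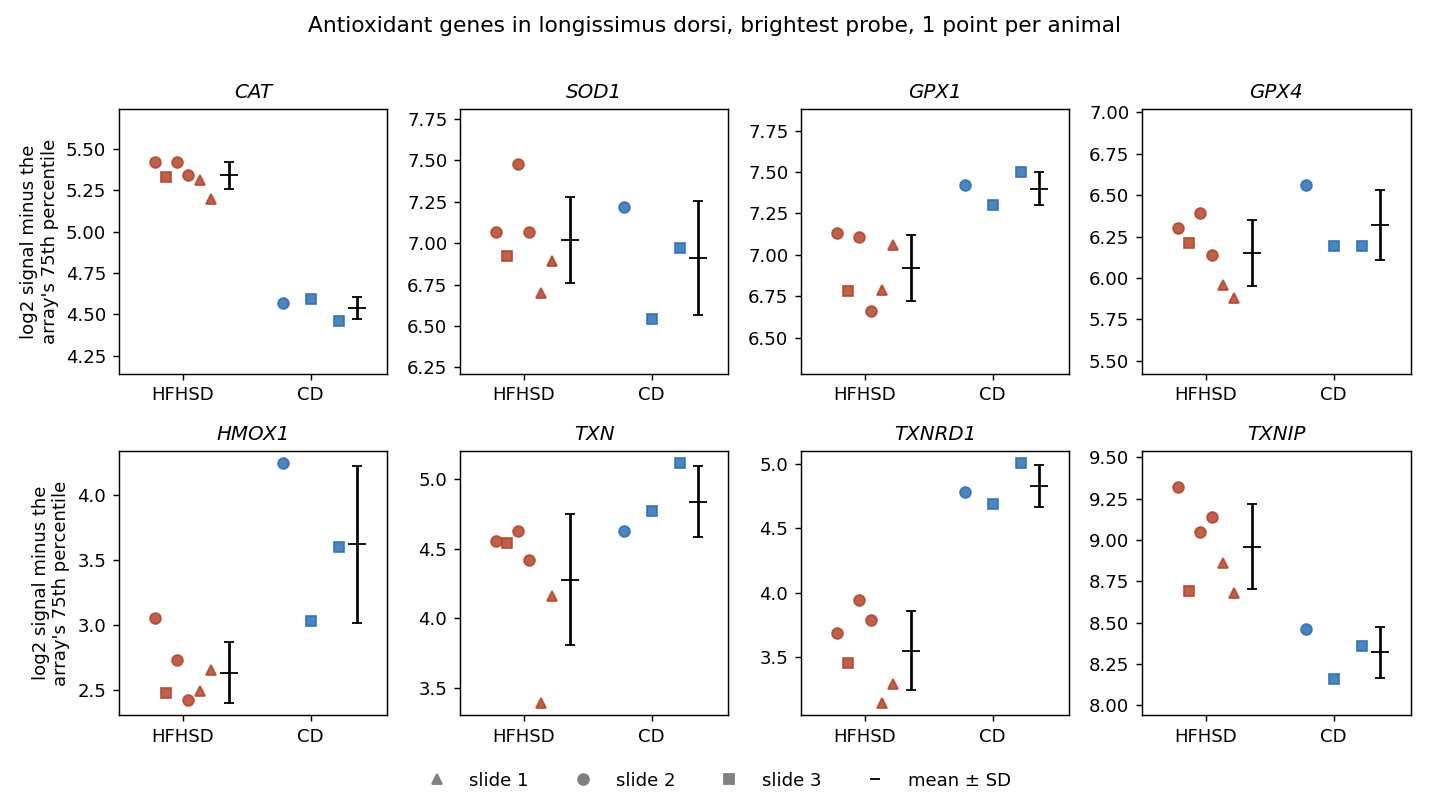
Level of each measured gene by its brightest probe, as log2 signal minus the array's 75th percentile, with 1 point per animal, HFHSD on the left and CD on the right of each panel, the symbol giving the slide, and bars giving the mean ± SD (n = 6 HFHSD and n = 3 CD). The CAT points of the groups lie far apart (lowest HFHSD 5.2, highest CD 4.59), as do those of TXNRD1 (highest HFHSD 3.94, lowest CD 4.69), whereas SOD1 and GPX4 overlap.

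CAT, the peroxisomal enzyme that splits hydrogen peroxide, was measured by 9 probes of accession NM_214301. On its brightest probe the HFHSD animals ran from 5.2 through a median of 5.34 to 5.42, and the CD animals were at 4.57, 4.59 and 4.46. The lowest HFHSD animal thus lay above the highest CD animal, and neither group had an animal apart from the others. The mean was 5.34 ± 0.0809 (SD, n = 6) in HFHSD and 4.54 ± 0.0679 (SD, n = 3) in CD, a difference of 0.80 (SE 0.153, 95% interval 0.46 to 1.14, adjusted p = 0.0401 in limma), or 1.74-fold. The exact two-sided permutation p was 0.0119, the smallest that 84 splits of 9 arrays allow; it was computed for each of the 36 probes and was not adjusted.

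The spread of the brightest CAT probe within groups was small: its pooled SD of 0.0774 was below that of all but 0.2% of the 2613 tested genes, whose median was 0.385. Other CAT probes varied more, such as A_72_P579607 with an SD of 0.296 in HFHSD (n = 6) and A_72_P664500 with an SD of 0.328 in CD (n = 3). The other 8 CAT probes differed by 0.40 to 0.83, and 7 of the 9 probes had groups that did not overlap. The dimmest probe, A_72_P686566, gave the highest difference of the 9 at 0.83 (adjusted p = 0.0589), and A_72_P579607 gave the lowest at 0.40 (adjusted p = 0.418), with HFHSD 3 and HFHSD 4 within the range of the CD animals on it. The mean of all 9 probes differed by 0.66 and did not pass (adjusted p = 0.0826).

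Within slides the CAT difference was 0.83 on slide 2 (3 HFHSD animals and CD 1) and 0.81 on slide 3 (HFHSD 2, CD 2 and CD 3), and 0.82 once slide entered the fit as a fixed term, where it did not pass (adjusted p = 0.0777). Leaving out any 1 of the 9 arrays ended the call, with differences of 0.76 to 0.83 and adjusted p from 0.0611 without HFHSD 1 to 0.205 without CD 3 (0.112 without CD 1). It did not pass with normexp background correction and percentile scaling (1.31, adjusted p = 0.108) or with dim probes kept in the test (adjusted p = 0.156).

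SOD1, the copper and zinc dismutase of the cytosol, did not separate the diets. Its brightest probe (NM_001190422) ran from 6.70 through a median of 6.99 to 7.48 in HFHSD, against 7.22, 6.54 and 6.97 in CD. The CD animals spanned most of the HFHSD range. The difference was 0.12 (SE 0.225, adjusted p = 0.86) with a 95% interval of -0.39 to 0.62. The other SOD1 probe differed by 0.18 (adjusted p = 0.782).

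**Figure D2:**
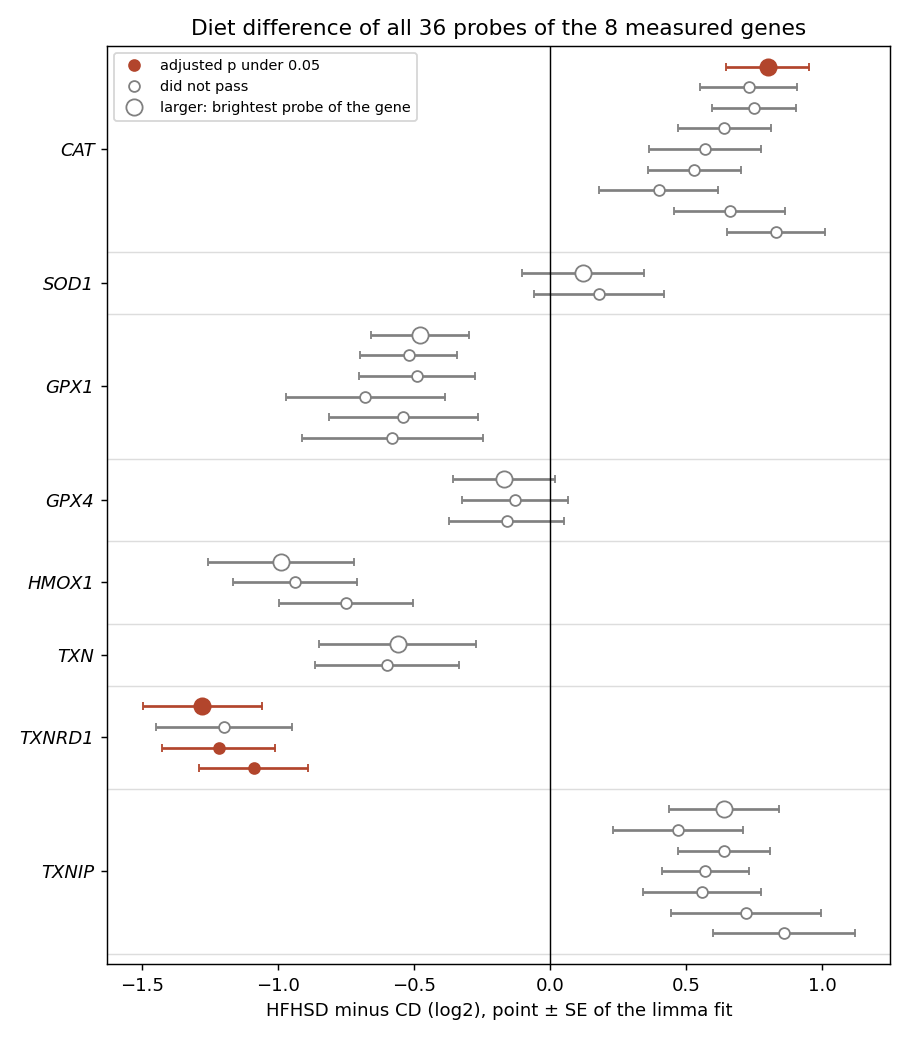
Difference HFHSD minus CD (log2, horizontal axis) of each of the 36 probes, grouped by gene with the brightest probe on top and drawn larger, with bars of 1 SE of the limma fit. Filled points passed an adjusted p of 0.05: 1 of CAT on the right, at 0.80, and 3 of TXNRD1 on the left, from -1.28 to -1.09; the probes of each gene lie on 1 side of 0.

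The glutathione peroxidases were both lower in HFHSD without passing. GPX1, the abundant form of cytosol and mitochondria, ran on its brightest probe (NM_214201) from 6.66 through a median of 6.93 to 7.13 in HFHSD, against 7.42, 7.30 and 7.5 in CD. All HFHSD animals lay below all CD animals on this probe, by a difference of -0.48 (SE 0.18, adjusted p = 0.217), with 95% limits of -0.88 and -0.08. The 6 GPX1 probes differed by -0.68 to -0.48, 4 of them had an unadjusted p under 0.05, as had 16.5% of all tested probes, and the groups did not overlap on 3. On the 4 dimmer probes HFHSD 5 was the lowest animal, at 5.08, 4.25, 3.44 and 2.45.

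GPX4, which reduces lipid peroxides within membranes and holds back ferroptosis, differed by -0.17 (SE 0.189, adjusted p = 0.74) on its brightest probe (NM_214407). HFHSD animals ran from 5.88 through a median of 6.18 to 6.39, and the CD animals were at 6.56, 6.19 and 6.19. The groups overlapped on all 3 GPX4 probes, with differences of -0.17 to -0.13, and the 95% interval of the brightest ran from -0.59 to 0.25. Without CD 1, the highest CD animal, its difference was -0.04. With normexp and percentile scaling its sign turned to 0.30.

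HMOX1, the inducible enzyme that breaks heme into biliverdin, iron and carbon monoxide, had the second lowest difference of the 8 genes and did not pass. Its brightest probe (NM_001004027) ran from 2.42 through a median of 2.57 to 3.05 in HFHSD, against 4.25, 3.03 and 3.60 in CD. HFHSD 1 at 3.05 and CD 2 at 3.03 were level, and CD 1 stood highest. The difference was -0.99 (SE 0.27, adjusted p = 0.102), and -0.94 (adjusted p = 0.0763) and -0.75 (adjusted p = 0.159) on the other 2 probes, where the groups did not overlap.

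The CD animals differed more in HMOX1 (SD 0.606, n = 3) than the HFHSD animals (SD 0.236, n = 6). Without CD 1 the difference was -0.68, within slide 2, where CD 1 is the only CD animal, it was -1.51, and within slide 3 it was -0.85. With normexp and quantile normalisation it passed (-0.89, adjusted p = 0.045). Macrophages also make HMOX1. CD163, a macrophage receptor for haemoglobin, had 4 probes, which differed by -1.18 to -0.31. Its brightest ran from 1.12 to 3.64 in HFHSD and was 3.55, 3.00 and 3.68 in CD (difference -1.13, adjusted p = 0.346). The median difference of the 8 measured macrophage and leukocyte markers was -0.11. The summed level of 8 measured macrophage and leukocyte markers ran from 3.99 to 5.10 in HFHSD and from 4.37 to 5.02 in CD, with 2 of 8 markers higher and 6 lower in HFHSD, and FCGR3A, an immunoglobulin receptor, passed as higher (1.19, adjusted p = 0.0339), a call that leaving out any 1 array ended (adjusted p 0.0514 to 0.19), as did slide in the fit (0.0708). Their part in HMOX1 was not tested.

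**Figure D3:**
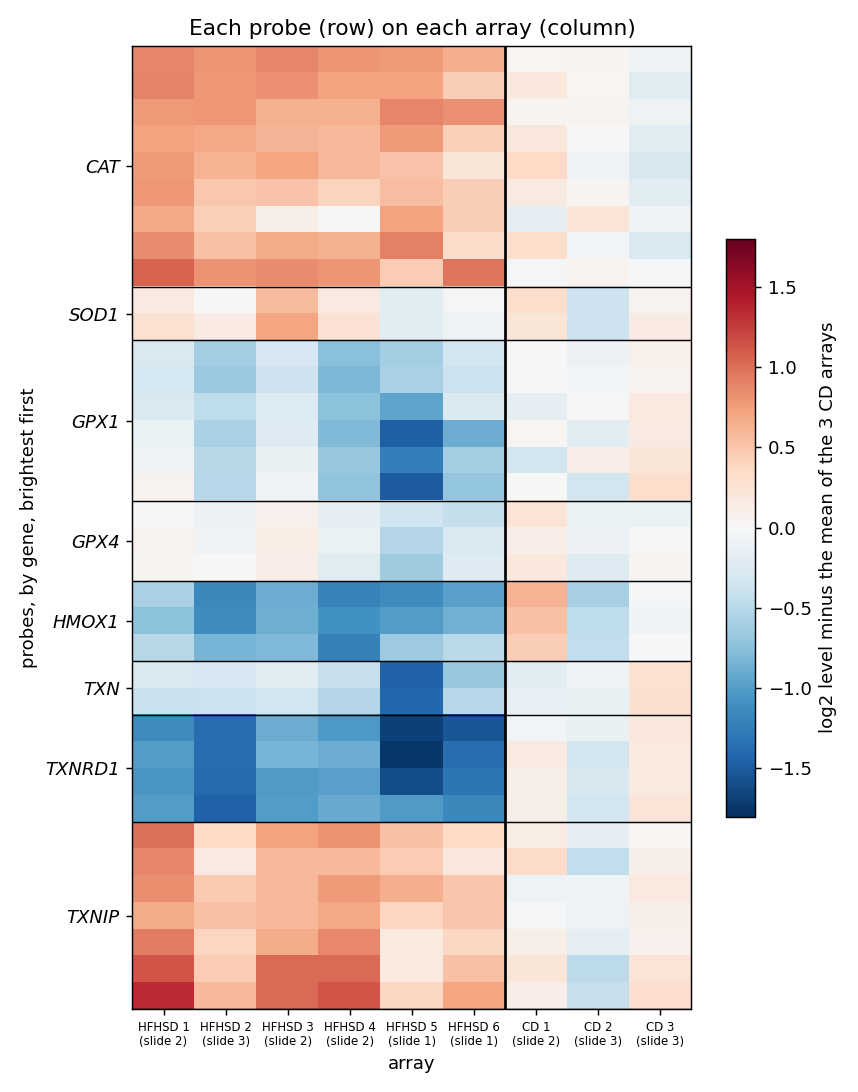
Each row is 1 of the 36 probes, grouped by gene with the brightest first, and each column 1 array, HFHSD left of the line and CD right of it; colour gives the log2 level minus the mean of the 3 CD arrays (red higher, blue lower). The CAT and TXNIP rows are red in HFHSD apart from pale cells, the TXNRD1 and HMOX1 rows are blue, and HFHSD 5 is the darkest blue array for TXN and for the dimmer GPX1 probes.

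Of the thioredoxin system, the reductase fell, thioredoxin was lower and its binding partner TXNIP higher without passing. TXNRD1 (NM_214154) ran on its brightest probe from 3.14 through a median of 3.57 to 3.94 in HFHSD, against 4.78, 4.69 and 5.01 in CD. The highest HFHSD animal lay well below the lowest CD animal. The mean was 3.55 ± 0.307 (SD, n = 6) in HFHSD and 4.83 ± 0.161 (SD, n = 3) in CD, a difference of -1.28 (SE 0.219, 95% limits -1.76 and -0.79, adjusted p = 0.031 in limma) or 0.413 times the CD level, and the exact permutation p was again 0.0119.

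All 4 TXNRD1 probes had groups that did not overlap, and their differences lay within -1.28 to -1.09. Probes A_72_P517550 (-1.22, adjusted p = 0.0306) and A_72_P455657 (-1.09, adjusted p = 0.0366) passed, and A_72_P499028 (-1.20, adjusted p = 0.0535) did not. The mean of the 4 probes also passed, at -1.20 (SE 0.209, adjusted p = 0.034). Among the 2613 tested genes TXNRD1 ranked 16 by p-value, and CAT ranked 22.

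The TXNRD1 difference was -0.97 among the slide 2 arrays and -1.40 among those of slide 3, and -1.17 once slide entered the fit as a fixed term (adjusted p = 0.0609). The call was lost without HFHSD 2 (adjusted p = 0.0691), HFHSD 3 (0.0533), HFHSD 6 (0.0639), CD 1 (0.095), CD 2 (0.0792) or CD 3 (0.186), with differences between -1.35 and -1.19 over the 9 omissions. Normexp with percentile scaling ended it too (-0.68, adjusted p = 0.609), as did keeping dim probes in the test (adjusted p = 0.0972).

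TXN itself, the small thiol protein that the reductase serves, had 2 probes (NM_214313). The brighter ran from 3.39 through a median of 4.48 to 4.63 in HFHSD, against 4.63, 4.77 and 5.12 in CD. HFHSD 5 was lowest, and the groups met at 4.63 without crossing. The difference was -0.56 (SE 0.289, adjusted p = 0.383), and -0.60 (adjusted p = 0.302) on the other probe. Without HFHSD 5 it was -0.38, and with slide in the fit it was -0.24; slide 1 held HFHSD 5 and HFHSD 6 and no CD animal.

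TXNIP, the thioredoxin-binding protein, had 7 probes (NM_001044614). Its brightest ran from 8.68 through a median of 8.95 to 9.32 in HFHSD, against 8.46, 8.16 and 8.36 in CD. Every HFHSD animal lay above every CD animal, with HFHSD 1 highest. The difference was 0.64 (SE 0.201, 95% interval 0.19 to 1.08, adjusted p = 0.146), or 1.55-fold, and it did not pass. All 7 probes were higher, by 0.47 to 0.86, the groups did not overlap on 5, and the smallest adjusted p was 0.096, on A_72_P585156. The difference was 0.72 within slide 2, 0.44 within slide 3 and 0.70 without CD 1, and it passed with normexp and quantile normalisation (0.78, adjusted p = 0.0402).

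All 8 measured adipocyte markers were higher in HFHSD by their brightest probe, with a median difference of 1.34. The groups did not overlap on 4 of them, beside 13.1% of all tested genes. The other LEP probe was lower in HFHSD (-0.14). Of the 8, 1 passed, the lipid droplet gene CIDEA (1.49, adjusted p = 0.038). Its call was lost in 8 of the 9 omissions of 1 array, HFHSD 4 being the exception, and with slide in the fit (adjusted p = 0.089). Over all tested genes 1108 of 2613 were higher in HFHSD and 0.498% passed as higher. The summed level of the 8 adipocyte markers was 8.54, 6.98, 7.57, 8.09, 6.82 and 7.03 on HFHSD 1 to 6, against 6.44, 6.87 and 6.53 on CD 1 to 3. On HFHSD 5 the sum lay within the CD range, while ADIPOQ, CIDEC, CIDEA and PPARG were above every CD animal on that array. ADIPOQ, the adipocyte hormone adiponectin, was at 2.37, 0.64, 2.26, -0.93, 1.71 and 2.59 on HFHSD 1 to 6, against -1.13, -1.24 and -0.71 on CD 1 to 3, so HFHSD 4 lay within the CD range of that gene, though its marker sum was high. ADIPOQ was picked after its values were seen, and other markers placed other animals within the CD range. HFHSD 3 lay there on LEP and HFHSD 2 on FABP4. PLIN1, a coat protein of fat cell droplets, was above background in 5 of 6 HFHSD animals and in 0 of 3 CD animals, but its levels overlapped. It was at -3.91, -6.42 and -6.05 on CD 1 to 3. HFHSD 4 (-5.86) and HFHSD 5 (-4.17) lay below CD 1, and the other HFHSD animals lay above it. The PLIN1 difference was 1.82 (adjusted p = 0.286), with 0.21 within slide 2 and 2.46 within slide 3. The part of adipocytes in CAT and in the other 7 genes was not tested. In whole muscle a change in the share of a cell type and a change in RNA per cell cannot be told apart. None of 10 erythrocyte genes had a named tested probe, so red cell RNA could not be followed.

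**Figure D4:**
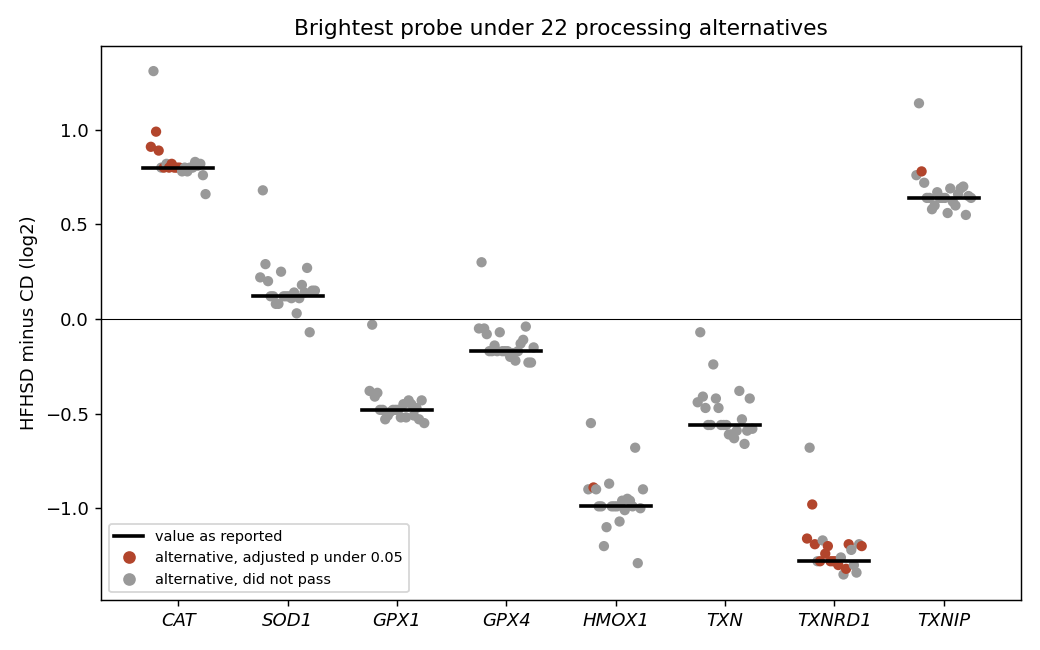
Difference HFHSD minus CD (log2, vertical axis) of the brightest probe of each gene; the black line is the value as reported and each point 1 of 22 processing alternatives, red where the adjusted p was under 0.05. Of the 22 points per gene, 1 is the mean of the gene's probes in place of its brightest probe. CAT stays between 0.66 (that mean) and 1.31 and TXNRD1 between -1.35 and -0.68, while SOD1 and GPX4 have points on both sides of 0.

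The other genes of these pathways were read from 10 lists of 171 genes, of which 62 had a tested probe with a gene name. By the brightest probe 47 of the 62 were lower and 15 higher in HFHSD, with a median difference of -0.21, beside -0.09 over all tested genes, 57.6% of which were lower. One of the 62 passed (1.61%, beside 0.995% of all tested genes). This was EPHX1, an epoxide hydrolase that is a known NRF2 target, at -0.88 in HFHSD and 1.69 in CD (difference -2.57, adjusted p = 0.0162); it was lost without CD 1 (adjusted p = 0.0737), without CD 3 (0.106) and with slide in the fit (0.0777).

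Of the list of superoxide, peroxide and glutathione enzymes 10 of 25 were measured, 7 of them lower, with 0 passing and a median of -0.21. GLRX, the glutaredoxin that removes glutathione from proteins, was at 2.01, 2.23, 2.61, 2.62, 1.28 and 1.94 on HFHSD 1 to 6, against 3.51, 2.78 and 4.20 in CD. The groups did not overlap, and the difference of -1.39 did not pass (adjusted p = 0.0958). GPX2 differed by -1.56 (adjusted p = 0.159), with 4 of 6 HFHSD and 2 of 3 CD arrays above background, and GSS, the glutathione synthetase, by -0.41 (adjusted p = 0.261).

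Of the NRF2 list 7 of 28 were measured and all 7 were lower, with a median of -0.35 and EPHX1 the 1 that passed. FTL, a ferritin chain that stores iron, differed by -0.84 (adjusted p = 0.167) and KEAP1, the repressor of NRF2, by -0.41 (adjusted p = 0.395). Among 5 of 14 measured glutathione transferases, 3 higher and 2 lower (median 0.37, 0 passing), GSTO1 was 4.95 ± 0.201 (SD, n = 6) in HFHSD and 5.80 ± 0.274 (SD, n = 3) in CD, without overlap and without passing (-0.85, adjusted p = 0.0686). GSTZ1 differed the other way (0.98, adjusted p = 0.138) and MGST3 by -0.51 (adjusted p = 0.417).

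Of the heme and iron list 8 of 18 were measured, 6 lower and 2 higher, with a median of -0.68 and 0 passing. IREB2, which controls ferritin and transferrin receptor messages according to iron, differed by -0.84 without overlap (adjusted p = 0.121), and TFRC, the transferrin receptor, by -1.29 (adjusted p = 0.195), with 1 of 6 HFHSD and 2 of 3 CD arrays above background. Of 20 genes for selenoproteins and selenium incorporation 13 were measured, 10 of them lower (median -0.43, 0 passing). SELENOT, a selenoprotein of the endoplasmic reticulum, differed by -0.70 without overlap (adjusted p = 0.18). DIO2, which activates thyroid hormone, differed by -1.27 (adjusted p = 0.202), with 5 of 6 HFHSD and 2 of 3 CD arrays above background.

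CAT is a peroxisomal enzyme, and of 26 peroxisome genes 8 were measured, 2 higher and 6 lower (median -0.12, 0 passing). ABCD3, a membrane transporter of peroxisomes, differed by -0.59 (adjusted p = 0.404), PEX2, an import factor, by 0.29 (adjusted p = 0.434) and CROT, a carnitine transferase, by -0.29 (adjusted p = 0.513). TXNRD2, the mitochondrial thioredoxin reductase, was the 1 measured gene of 15 in the list of thioredoxin partners. It ran from 0.92 to 1.64 in HFHSD, against 1.69, 1.14 and 1.28 in CD, overlapping, with a difference of -0.10 (adjusted p = 0.884).

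The genes nearest to CAT in pattern, by the root mean square difference over the 9 arrays after each probe's own mean was taken off, were C4H8orf37 (0.099), GPN3 (0.116) and SLA-DQB1 (0.139), where the median over 2612 genes was 0.587. C4H8orf37 differed by 0.68 (adjusted p = 0.0662), GPN3 by 0.64 (adjusted p = 0.0824) and SLA-DQB1, an antigen-presenting chain, by 0.93 (adjusted p = 0.0371, 0.0514 to 0.202 with 1 array left out, and 0.0777 with slide in the fit). Nearest to TXNRD1 were DPM1 (0.145), SLC25A6 (0.174) and EIF1B (0.188), where the median was 0.723. Both sets of genes were picked by their pattern over the same 9 arrays, diet difference included. A difference like that of CAT or TXNRD1 thus followed from the choice. DPM1, of dolichol-linked mannose synthesis, differed by -1.14 (adjusted p = 0.0253), SLC25A6, a mitochondrial carrier of ADP and ATP, by -1.39 (adjusted p = 0.014), and EIF1B, a translation initiation factor, by -0.91 (adjusted p = 0.0817). With 1 array left out, DPM1 passed in 3 of 9 fits (adjusted p up to 0.153, without CD 3) and SLC25A6 in 7 of 9 (lost without CD 1, 0.0648, and without CD 3, 0.0821).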

How the data were processed

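Each deposited file gives, for 1 single-colour (Cy3) array, the linear intensity of every spot. The authors used Agilent Feature Extraction 10.7.3.1, as the file headers record; its processed signal is corrected for background and was not scaled between arrays. The deposited value table holds the same intensity values: 0 spots differed on each array. Control spots and outlier spots were left out, which dropped 22 of 43603 probes. Processed signals were put on the log2 scale and the 75th percentile of each array was taken off. Probes well above background on at least 3 arrays were tested, 27922 in all. The test was that of limma 3.58.1 in R 4.3.3 (two-sided, no covariates, Benjamini-Hochberg over all tested probes). Only the limma fit was also run on simulated data, without the scaling, filtering and naming steps. That run does not show how well differences of the size reported here are found. The brightest tested probe stands for a gene.

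Accessions without versions were matched to a RefSeq gene table of Sscrofa11.1, used for names only, since the array files name no genome build; 36712 probes stayed unnamed. The genes, the lists and the tests were chosen with earlier results of these data known. Besides the 9 genes, the text names up to 3 genes of each list with the smallest p (1 such gene is not reported here), any list gene that passed, and the 3 genes nearest in pattern to a gene that passed; CD163, FCGR3A, CIDEA, CIDEC, PLIN1, PPARG and ADIPOQ were picked from the cell type marker lists after their values were seen.

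There were 3 slides. Slide 1 (HFHSD 5 and 6) was scanned on another day than slides 2 (HFHSD 1, 3 and 4, CD 1) and 3 (HFHSD 2, CD 2 and 3). Each array is 1 animal, numbered here in accession order, and the number of arrays limits the precision. The series design gives 3 CD animals and the growth protocol 6; 3 CD arrays were analysed. Alternatives were 22 in number: quantile normalisation, normexp (offset 50, on the median spot and background signals, the files having no mean spot signal) with either scaling, another percentile base, other filters, slide as a fixed or random block, array weights, a variance trend, outlier spots kept, the value table, the mean of a gene's probes, and leaving out each array.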

Additional observations from a re-analysis of the deposited data

Results flagged for a closer look

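Of the 36 probes, 2 had 1 HFHSD animal far from the other 5 (Dixon's gap-to-range ratio above its 95% critical value, as chance alone gives in about 5% of groups). On TXN probe A_72_P546866, HFHSD 5 was at 2.84 and the other HFHSD animals ran from 3.73 to 3.93 (ratio 0.82). On the brighter TXN probe the same animal was also lowest, at 3.39. On CAT probe A_72_P632481, HFHSD 6 was at 4.97 and the others ran from 5.26 to 5.42 (ratio 0.634), still above the CD animals at 4.72, 4.56 and 4.31.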

How the results depend on the processing

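The sign of all 36 probe differences was the same in 18 of 21 alternatives that kept single probes; 1 GPX4 probe turned with quantile normalisation, 3 GPX4 probes with normexp and percentile scaling (brightest 0.30), and 1 SOD1 probe without CD 2 (-0.07, where the SOD1 difference ran from -0.07 to 0.27 over the omissions of 1 array). In normexp with percentile scaling the 8 brightest probes each moved up by 0.44 to 0.60 (SOD1 0.68, GPX1 -0.03, HMOX1 -0.55, TXN -0.07, TXNIP 1.14), where the median probe above background on all arrays moved by 0.22 and the median difference of all tested probes was -0.171. The count of called probes (346) was 88 with normexp and percentile scaling, 856 with normexp and quantile normalisation, 66 with no filter on dim probes, 735 with probes above background on all arrays, 84 and 681 with slide as a fixed and a random block, 1205 with array weights, 616 with a variance trend, and 25 to 324 with 1 array left out. Of the 36 probes (4 called), 7 were called with quantile normalisation, 8 with the percentile over bright probes, 8 with the random block, 10 with array weights, 10 with the variance trend, 11 with probes above background on all arrays, 20 with normexp and quantile normalisation, 0 with normexp and percentile scaling, no filter or the fixed block, and 0 to 3 with 1 array left out. Of the 8 genes (2 called), 4 were called with normexp and quantile normalisation (CAT, TXNRD1, HMOX1 and TXNIP), 1 with the mean of a gene's probes (TXNRD1), 0 with normexp and percentile scaling, no filter or the fixed block, and 0 to 1 with 1 array left out. CAT passed in 9 and TXNRD1 in 13 of 22 alternatives. Among these, the value table holds the same intensities and could not differ. Keeping outlier spots gave the same CAT and TXNRD1 values as the main fit. Of the list genes (1 called), 3 were called with array weights, normexp and quantile normalisation, or probes above background on all arrays, 2 with the random block, the variance trend, or normexp and percentile scaling, 0 with the fixed block, and 0 to 1 with 1 array left out. The cause of these changes was not tested. No paired analysis was run, since each array was 1 animal on 1 diet and the labels used here name no pairs of animals.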

Other observations

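Sources of reactive oxygen showed no gene past the threshold. Of 18 genes of NADPH oxidase and other oxidant sources 7 were measured, 2 higher and 5 lower in HFHSD, with a median difference of -0.16. MAOB, a mitochondrial monoamine oxidase, ran from -1.39 to 0.79 in HFHSD, against -0.18, -1.43 and -0.72 in CD (difference 0.59, adjusted p = 0.603), with -0.34 within slide 2 and 1.86 within slide 3. DUOX2, a dual oxidase, differed by -0.50 (adjusted p = 0.665), with 3 of 6 HFHSD and 2 of 3 CD arrays above background. Both measured metallothioneins overlapped between the diets: MT1A, which binds zinc and copper, was -0.31, -1.12, -0.06, 1.03, 0.57 and 0.11 on HFHSD 1 to 6, against 0.21, -1.0 and 2.34 in CD, and MT3 differed by -0.15 (adjusted p = 0.916). Of 15 sestrin and FOXO related genes 7 were measured, 6 lower, with 0 passing. PPARGC1A, a coactivator of mitochondrial genes, ran from 1.89 to 4.03 in HFHSD, against 3.88, 2.57 and 5.81 in CD (-1.47, adjusted p = 0.321). OXSR1, a stress-responsive kinase, differed by -0.32 without overlap (adjusted p = 0.328) while its other probe differed by 0.81. SIRT3, a mitochondrial deacetylase, differed by -0.35 (adjusted p = 0.674), with 3 of 6 HFHSD and 2 of 3 CD arrays above background.

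HFHSD 5 was the lowest of the 6 HFHSD animals on 18 of the 36 probes, beside 33.1% of all probes above background on every array, and HFHSD 1 was the highest on 18 of the 36, beside 27.6%.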
